A study of Rattus norvegicus with 4 samples.

Results

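Both livers of rats given cells were set against 1 saline liver, to describe what the infusion of stem cells shared whatever the cells carried. The comparison used 3 of the 4 livers of the series, with 1 library each. All were livers of LEWIS rats of allotype RT1L, and poly(A)-selected RNA was sequenced on an Illumina MiSeq. The saline, siRNC and miR-27b rats had undergone partial hepatectomy, in which a surgeon removes lobes of the liver and the rest regrows. Into a vein they were given saline, cells named ASCs-siRNC in the labels, or cells named ASCs-miR27b. The labels do not spell out ASCs, taken here as adipose-derived stem cells, or siRNC. The 4th liver was a naive control, which entered the filter on low levels but neither of the differences. Age, cell number, the species or donor of the cells, and the day and hour of collection after surgery were not stated in the labels.

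A gene was described as shared where 3 conditions held. The log2 value of either cell library was at least 2-fold away from the saline library, both lay on one side, and the 2 differences lay within 1 of each other on the log2 scale. Both differences contain the same saline library with a minus sign. A gene that is displaced in the saline library alone therefore appears in both, and agreement between the differences is not independent support for an action of the cells. With 1 library per group there is no estimate of the spread between animals, so no test was made and no p-value is given. Where read numbers could be recovered, a 95% interval is given that covers counting error only.

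After partial hepatectomy the remaining hepatocytes leave rest, pass through the cell cycle and store fat for a time while the tissue regrows. Hepatic fat synthesis is driven by SREBP-1c, the main liver form made from Srebf1, which insulin induces and which activates the enzymes that turn citrate into fatty acids. SREBP-2 controls cholesterol synthesis, and INSIG proteins hold both factors back in the endoplasmic reticulum. Stem cells given into a vein are known mainly for signals they release rather than for lasting engraftment.

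MicroRNA 27b is the cargo named for one of the infused cell groups and not for the other, so its sequence is given here. Its part in differences between the livers was not tested. The labels do not say which arm was used. Both rat arms are shown from RefSeq with the seed, bases 2 to 8, in capitals. On GRCr8 the 3p arm lies at chr17:1819163-1819183 on the minus strand, and the 5p arm at chr17:1819202-1819225.
rno-miR-27b-3p: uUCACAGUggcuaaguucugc
rno-miR-27b-5p: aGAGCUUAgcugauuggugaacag
Small RNAs are not measured by this assay, so the level of the microRNA in the livers is not known.

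Of 31457 genes in the table, 9956 passed the filter on low levels. In siRNC liver 261 of them (2.62%) were at least 2-fold above the saline liver and 205 (2.06%) at least 2-fold below. In the miR-27b liver 277 (2.78%) were at least 2-fold above and 225 (2.26%) at least 2-fold below. The shared genes numbered 75 higher (0.753%) and 34 lower (0.342%) in both cell livers. Past 2-fold with one sign there were 84 higher and 40 lower genes, of which 9 and 6 were left out because the differences were 1 or more apart. Among the shared genes the median difference was 1.51 in the siRNC liver and 1.44 in the miR-27b liver on the higher side. On the lower side the medians were -1.29 and -1.46. Over all 9956 genes the medians were -0.006 and 0.0004, as scaling by size factors sets them near 0.

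**Figure D1:**
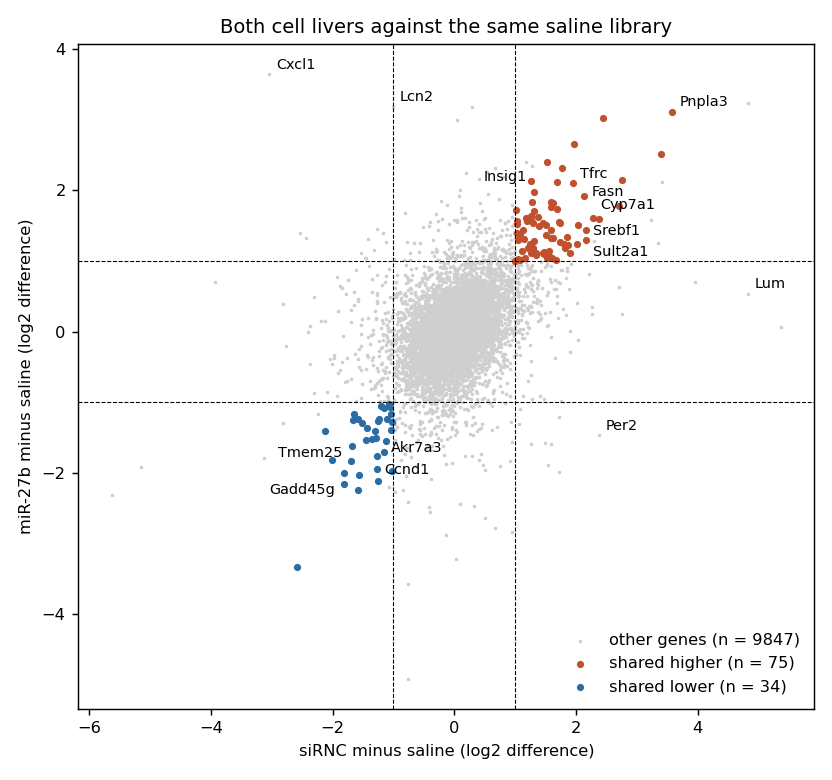
Each point is 1 of 9956 genes, placed by its log2 difference between the siRNC and the saline library (horizontal axis) and between the miR-27b and the saline library (vertical axis), with dashed lines at 2-fold. The 75 shared higher genes (red) include Pnpla3, Fasn, Cyp7a1 and Tfrc, the 34 shared lower genes (blue) include Ccnd1 and Gadd45g, and Cxcl1, Per2 and Lum are examples outside the rule.

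Most shared genes lay outside a set of higher level. Of the 75 higher genes, 26 were in a stricter set, with a mean of at least 50 normalised reads or a level class of at least 256 reads, and of the 34 lower genes 6 were. Read numbers could be recovered for 16 higher and 9 lower genes, and those of the rest are not known. The counting intervals of both differences lay on the same side of 0 in 10 and 6 of these. At 16 reads in each of 2 libraries the counting SD of a log2 difference is 0.51, and at 256 reads it is 0.13. A shared gene of the lower level class can thus pass or miss the 2-fold limit by counting error.

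Fatty acid synthesis was the list with the most shared genes. Of 21 measured genes of the SREBP-1c and fatty acid synthesis list, 9 were at least 2-fold higher and 1 lower in the siRNC liver (median 0.65). Against the same saline library the miR-27b liver had 7 higher and none lower (median 0.72). Of all 9956 genes, 2.62% were at least 2-fold higher and 2.06% lower in the siRNC liver, and 2.78% and 2.26% in the miR-27b liver. Over the 17 genes of the stricter set the medians were smaller, 0.28 and 0.38. The shared genes numbered 6, Pnpla3, Fasn, Srebf1, Thrsp, Acacb and Acly, all on the higher side, where 0.753% of all genes were shared. The list had been chosen with earlier results of these data known, so its counts are a description.

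Srebf1 (gene ID 78968), which encodes the SREBP-1 factors, was 4.47-fold above saline in the siRNC liver and 2.72-fold in the miR-27b liver. On the log2 scale its values relative to saline were 2.12 in the naive, 2.16 in the siRNC liver and 1.45 in the miR-27b liver. The saline library was thus the low one of the 4, and the naive liver stood level with the siRNC liver. Fatty acid synthase, Fasn (gene ID 50671), was 4.38-fold and 3.78-fold above saline, and 1.99-fold above it in the naive liver. Acly, which makes cytosolic acetyl-CoA from citrate, differed from saline by 1.60 in the siRNC liver and 1.05 in the miR-27b liver, against 0.44 in the naive liver. Acacb, the acetyl-CoA carboxylase at the mitochondrial surface that restrains fatty acid oxidation, differed by 1.29 and 1.19, against 0.78 in the naive liver. With 5 reads added to each library, and 16 assumed where reads were not recovered, it came to 0.95 and 0.87 and was no longer shared. For these 3 enzymes both cell livers lay above the naive liver, which lay above saline.

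Thrsp, the lipogenic protein known as Spot 14, was 1.63 and 1.33 above saline, while the naive liver was at -0.01. Its naive and saline values were therefore alike, and the cell livers stood apart from both. Pnpla3 (gene ID 362972), a lipid droplet protein induced by SREBP-1c, showed the highest shared differences, 11.98-fold in the siRNC and 8.67-fold in the miR-27b liver. Its naive value was 1.82 above saline on the log2 scale. Pnpla3 was in the lower level class, and under the same addition its differences came to 2.64 and 2.22 instead of 3.58 and 3.12.

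Close partners of these enzymes passed 2-fold with unequal size or in 1 liver alone. Mid1ip1, which activates acetyl-CoA carboxylase, was 2.54 above saline in the siRNC liver and 1.18 in the miR-27b liver, with the naive liver at 2.39. Elovl6, a fatty acid elongase, was at 1.88 and 0.61. Insig2, which retains SREBP in the endoplasmic reticulum, was on the other side, at -1.38 in the siRNC liver and -0.69 in the miR-27b liver, and 1.07 in the naive liver. Other members lay near saline in both cell livers. They include Acaca, the cytosolic acetyl-CoA carboxylase, at 0.28 and 0.31, Me1, malic enzyme, at -0.28 and -0.29, and Mlxipl, which encodes the sugar-sensing factor ChREBP, at 0.03 and -0.19. The hepatocyte plasma protein genes stayed close to saline, with medians of -0.03 and 0.10 over 19 genes, and albumin (Alb) was at -0.03 and 0.13.

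**Figure D2:**
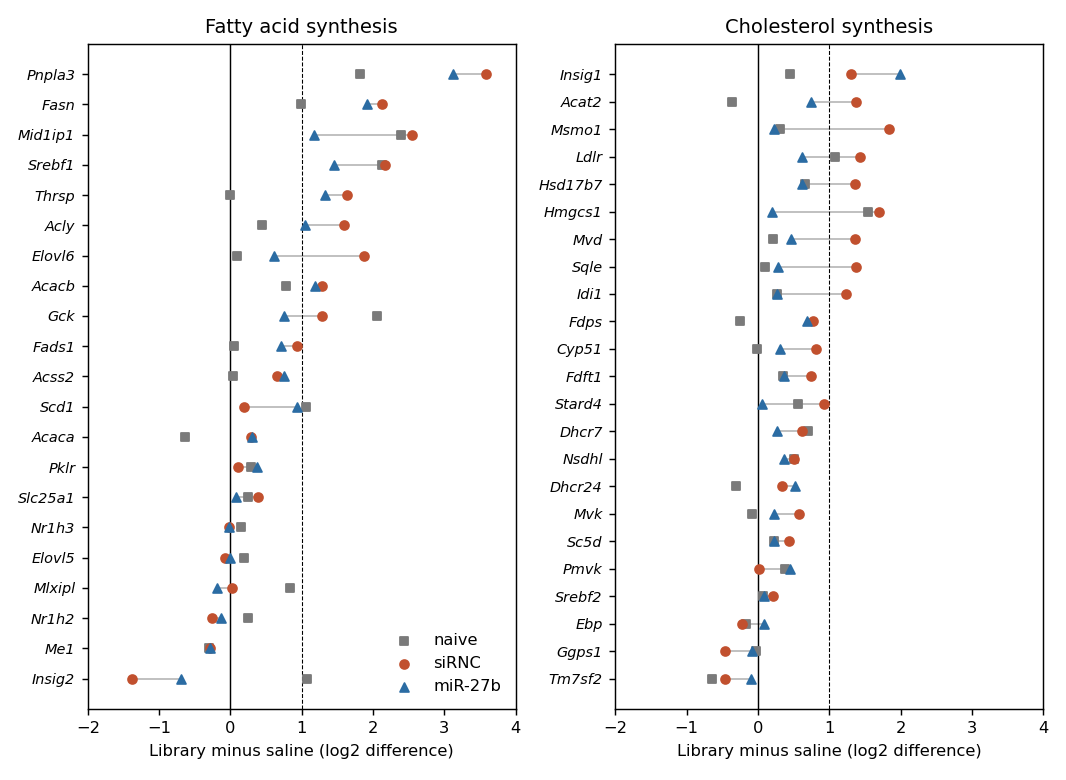
Points give each library minus the saline library on the log2 scale (horizontal axis) for measured genes of the fatty acid list (left, 21 genes) and the cholesterol list (right, 23 genes), with squares for the naive, circles for the siRNC and triangles for the miR-27b liver and a dashed line at 2-fold. Pnpla3, Fasn, Srebf1, Thrsp, Acly and Acacb have both cell livers past the line, whereas Hmgcs1 and Msmo1 have the siRNC liver alone.

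Slc2a5, the fructose transporter, was a shared gene outside the list and had recovered reads. Its reads were 93 in the naive, 112 in the saline, and 302 and 222 in the siRNC and miR-27b libraries. The cell livers stood above both others, by 1.48 over saline in the siRNC liver (95% counting interval 1.16 to 1.80) and by 1.11 in the miR-27b liver (0.77 to 1.45).

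Cholesterol synthesis genes were mostly above saline in each cell liver, by unequal amounts. Of 25 measured genes of the cholesterol and SREBP2 list, 11 were at least 2-fold higher in the siRNC liver and 2 in the miR-27b liver, and none was lower in either. Over all genes 2.62% and 2.78% were at least 2-fold higher in these livers. Above 0 were 22 genes in each, and the medians were 0.82 and 0.27. Of all 9956 genes, 4895 were above 0 in the siRNC liver and 4981 in the miR-27b liver. Insig1, a shared gene that holds SREBP in the endoplasmic reticulum and is itself an SREBP target, was 1.31 and 1.98 above saline, with the naive liver at 0.45. Some enzymes of the pathway were past 2-fold in the siRNC liver alone. Hmgcs1, a synthase early in the pathway, was at 1.70 in that liver and 0.20 in the miR-27b liver, and Msmo1, a sterol oxidase, at 1.84 and 0.23.

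Insig1 was one of the shared genes whose promoter holds an E-box, the palindrome CACGTG that SREBP-1, ChREBP and the clock factors can bind. Its promoter, 250 bases before to 50 after the start, is shown from RefSeq, GRCr8 chr4:8057720-8058019, minus strand, with the E-box in capitals.
Insig1: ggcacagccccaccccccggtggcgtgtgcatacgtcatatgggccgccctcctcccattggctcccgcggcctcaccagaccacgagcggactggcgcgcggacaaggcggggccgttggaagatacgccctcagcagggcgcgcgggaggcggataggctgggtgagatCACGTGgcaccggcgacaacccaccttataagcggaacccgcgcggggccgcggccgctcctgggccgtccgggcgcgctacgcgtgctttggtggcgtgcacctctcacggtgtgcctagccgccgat
Promoters were found for 54 of 75 shared higher and 25 of 34 shared lower genes, some with more than 1 start. On either strand, CACGTG was present in 7 of 65 promoters of shared higher genes (10.8%), in 3 of 28 of shared lower genes (10.7%) and in 6.42% of all 33469 promoters. The core of the sterol regulatory element, CACCCCA, was present in 6 of 65 (9.23%), in 0 of 28 and in 6.93% of all. None of 19 promoters of the fatty acid synthesis list held CACCCCA, and 1 held CACGTG, that of Elovl5. The 2 motifs share only their first letters and were counted apart. A longer sterol element and the D-box had been searched first, and the core was chosen after that search. These are matches of letters in a short window and say nothing of binding.

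Bile acid synthesis was represented by its first enzyme alone. Cyp7a1 (gene ID 25428), the enzyme that limits the rate at which cholesterol becomes bile acid, was 4.85-fold above saline in the siRNC liver and 3.06-fold in the miR-27b liver. Its log2 values were 2.28 and 1.61, and the naive liver was at -0.41, near saline. No other member of the 15 measured bile acid genes was shared. Cyp8b1 was at 0.21 and 0.39, Cyp27a1 at -0.49 and -0.07, and Nr0b2, which encodes the repressor SHP, at 0.20 and 0.96. The exporters of sterols into bile were on the lower side of saline, Abcg5 at -0.98 and -1.54 and Abcg8 at -0.60 and -1.53.

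Sult2a1, a sulfotransferase for bile acids and steroids, was 2.16 above saline in the siRNC liver and 1.30 in the miR-27b liver, with the naive liver at 0.32. It was the only shared gene among 18 measured phase II conjugation genes, whose medians were -0.25 and -0.14. Sult2a genes have close copies in the rat, and reads could have been split among them. Tfrc, the transferrin receptor that takes up iron, was 3.86-fold and 4.30-fold above saline, and 2.08-fold above it in the naive liver. Cyp2r1, which hydroxylates vitamin D, was at 1.38 and 1.49, against 0.47 in the naive liver.

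A2m, alpha-2-macroglobulin, a protease inhibitor and acute phase protein of the rat, was 1.27 and 1.84 above saline, with the naive liver at -0.47. Of the other 22 measured acute phase genes none was shared. The list's medians were -0.12 in the siRNC liver and 0.53 in the miR-27b liver.

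**Figure D3:**
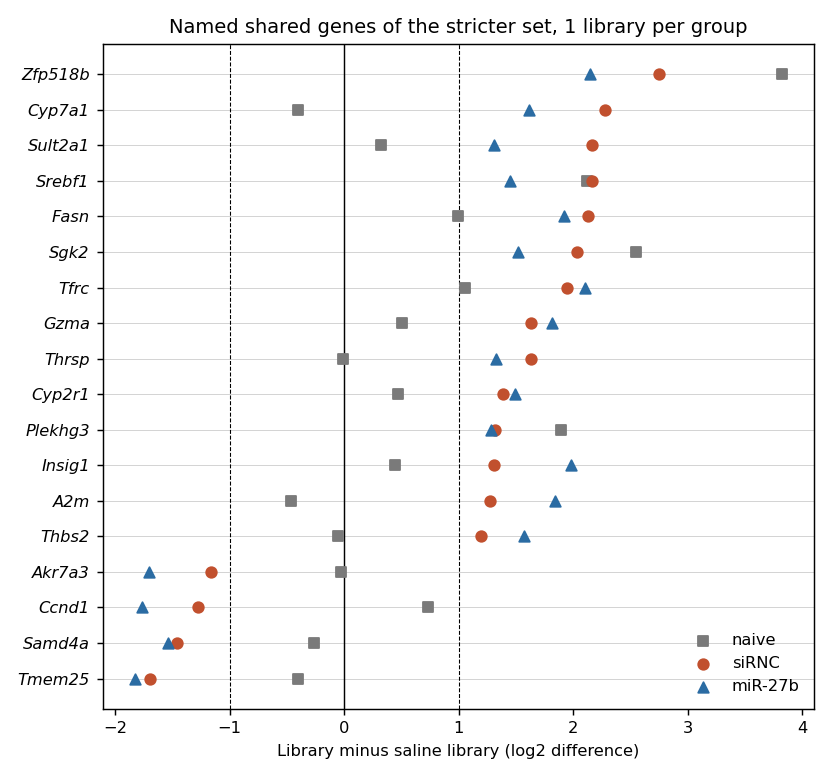
Each row is 1 of the 18 named shared genes of the stricter set, with the naive (square), siRNC (circle) and miR-27b (triangle) library minus the saline library on the log2 scale (horizontal axis) and dashed lines at 2-fold. The cell livers sit side by side past the lines, while the naive liver lies near saline for Cyp7a1, Thrsp and A2m and past the cell livers for Zfp518b and Sgk2.

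Genes of other cells than hepatocytes were among the shared higher genes. In bulk liver, more cells of a type and more RNA per cell cannot be told apart. Gzma (gene ID 266708), granzyme A of cytotoxic lymphocytes, had 192 reads in the naive, 144 in the saline and, in siRNC and miR-27b order, 431 and 467 in the cell libraries. Both cell livers lay above both others, and the differences from saline were 1.63 (95% counting interval 1.35 to 1.91) and 1.82 (1.54 to 2.10). Of 16 T and NK cell markers only 3 passed the filter and Cd2 was at 0 in all 4 libraries. Apart from Gzma these were Cd4, at 0.05 and 0.27, and Il2rb, at 0.25 and -0.12. Of the 12 markers below the filter, 3 met the same rule on the higher side, the cytotoxic cell genes Nkg7, Klrd1 and Cd8a. Nkg7 had 5.28 and 5.5 reads in the siRNC and miR-27b libraries and Klrd1 3 and 4, with both at the floor of 1 normalised read in the naive and saline libraries. For Cd8a the naive liver lay above both cell livers. Among the other markers below the filter, Cd3e, Cd247 and Prf1 were higher in both cell livers without meeting the rule. Klrb1a was lower in both (-1.53 and -0.46), and Lck (-0.92 and 1.26) and Gzmb (-0.53 and 0.86) were split. Cd3g and Cd8b were higher in a single cell liver, and Cd3d was level with saline in both. More of the markers below the filter were thus higher in both cell livers than lower in both, on few reads where reads were recovered. The part of lymphocyte number in the Gzma difference was not tested.

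Matrix and stellate cell genes were on the higher side in both cell livers by small amounts. Of 32 measured genes 23 were above 0 in the siRNC liver and 29 in the miR-27b liver, where 4895 (49.2%) and 4981 of all 9956 genes were above 0. The medians were 0.28 and 0.42, and at least 2-fold higher were 7 and 3 genes. Of all genes 2.62% and 2.78% were at least 2-fold higher, and 0.753% were shared higher. Shared were Acta2, smooth muscle actin, at 1.27 and 2.14, and Col6a3, a chain of collagen VI, at 1.81 and 1.19. With 5 reads added, Col6a3 came to 0.94 in the miR-27b liver and was no longer shared. The naive liver was at -0.79 for Acta2 and 0.34 for Col6a3. Thbs2, a matrix-associated thrombospondin outside the list, had 29 reads in the naive, 32 in the saline, and 71 and 87 in the siRNC and miR-27b libraries. Its differences were 1.20 (0.58 to 1.85) and 1.57 (0.96 to 2.20). The fibrillar collagens differed between the cell livers, with Col1a1 at 2.75 in the siRNC liver and 0.25 in the miR-27b liver. Lum, the proteoglycan lumican, had 4, 3, 82 and 4 reads in the naive, saline, siRNC and miR-27b libraries, so its difference belongs to the siRNC library. Postn, periostin, likewise came to 41.5 and 1 reads in the siRNC and miR-27b libraries.

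Markers of stromal and adipose cells were also compared, since the infused cells were taken as adipose-derived stem cells. Of 17 listed genes 11 were measured, with medians of 0.12 and 0.24. None was at least 2-fold higher in the siRNC liver and 2 were in the miR-27b liver, against 2.62% and 2.78% of all genes. Adipoq, Lep, Plin1 and Plin4, the defining genes of fat cells, were at 0 in all 4 libraries. The labels name no fat cells among those infused, so these zeros do not show whether infused cells were present. Macrophage and Kupffer cell genes had medians of -0.15 and 0.24 over 18 genes, with none past 2-fold in either cell liver. Endothelial genes had medians of -0.16 and 0.28 over 17 genes.

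Some shared higher genes encode regulators or secreted signals. Bcl6, a transcriptional repressor that growth hormone signalling holds down, was 1.97 and 2.65 above saline, and the naive liver was at 4.67. Metrnl, a secreted meteorin-like protein, was at 2.44 and 3.03, with the naive liver at 1.55. Inhba, the subunit of activin A, a brake on hepatocyte growth, was at 1.51 and 1.36, with the naive liver at 2.48. With 5 reads added Inhba was no longer shared. In the stricter set, the zinc finger gene Zfp518b was at 2.75 and 2.14, the kinase Sgk2 at 2.03 and 1.52, and the exchange factor Plekhg3 at 1.32 and 1.28. The naive liver was at 3.82, 2.55 and 1.90 for these 3 genes, further from saline than the mean of the cell livers. Of the growth factor and receptor genes none of 10 was past 2-fold in either liver, and Hgf, hepatocyte growth factor, was at 0.21 and 0.42. Tgfb1, a growth inhibitor and matrix inducer, was at -0.12 and 0.35.

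Among the shared lower genes, Ccnd1 (gene ID 58919) was the cell cycle gene of higher level. Cyclin D1, its product, carries hepatocytes through G1 after hepatectomy. It was 2.42-fold below saline in the siRNC and 3.40-fold below in the miR-27b liver, at -1.27 and -1.76 on the log2 scale. The naive liver was at 0.73, so the cell livers were the low ones of the 4. None of the other 12 measured G1 genes was shared, and the list's medians were 0.11 and 0.04. Cks1l, related to the small subunits of cyclin-dependent kinases, had 21, 40, 13 and 9 reads in the naive, saline, siRNC and miR-27b libraries, with differences of -1.57 (-2.60 to -0.64) and -2.03 (-3.26 to -0.97). Orc6, a subunit of the origin recognition complex, was at -1.58 and -2.24, and the naive liver lay lower still, at -3.86. Pold1, a DNA polymerase subunit, was on the higher side, but with 5.39 reads in the saline library against 27 and 15 in the siRNC and miR-27b libraries. Mki67, the proliferation marker Ki-67, was at -0.71 and 0.73.

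Stress and growth arrest genes were also found on the lower side. Gadd45g (gene ID 291005), a growth arrest and DNA damage gene, was 3.53-fold and 4.44-fold below saline, with the naive liver at 0.17. Its relatives were not shared, with Gadd45a at 0.30 and 0.71 and Gadd45b at -1.58 and 0.43. The Gadd45g promoter held an E-box, in capitals, and is shown from RefSeq, GRCr8 chr17:13530302-13530601, minus strand.
Gadd45g: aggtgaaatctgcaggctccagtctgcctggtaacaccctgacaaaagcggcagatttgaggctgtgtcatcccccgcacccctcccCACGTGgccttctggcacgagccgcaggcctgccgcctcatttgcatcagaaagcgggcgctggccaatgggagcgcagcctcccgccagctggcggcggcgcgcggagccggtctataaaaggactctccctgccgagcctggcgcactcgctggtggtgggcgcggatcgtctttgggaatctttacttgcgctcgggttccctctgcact
Trib3, a pseudokinase induced by ATF4 that restrains insulin signalling, was at -1.15 and -1.08, with the naive liver at -1.62. For Trib3 the saline library was the high one of the 4. With 5 reads added Trib3 was no longer shared. The other genes of the ATF4 and unfolded protein list did not follow, with list medians of 0.23 and 0.23 over 21 genes. Egln1, the prolyl hydroxylase that marks hypoxia-inducible factors for degradation, was at -1.26 and -2.12, with the naive liver at -0.90.

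Other shared lower genes were of varied function. Tmem25, a transmembrane protein gene, had 77 reads in the naive, 108 in the saline, and 32.3 and 28 in the siRNC and miR-27b libraries. The cell livers lay below both others, by -1.69 (-2.32 to -1.13) and -1.83 (-2.48 to -1.22) relative to saline. Fam89a had 118, 161, 76 and 66 reads in the same order, with differences of -1.04 (-1.45 to -0.63) and -1.17 (-1.60 to -0.74). Akr7a3, an aldehyde reductase that detoxifies aflatoxin, was at -1.16 and -1.70, and Samd4a, a translational repressor, at -1.46 and -1.53. The naive liver was at -0.02 and -0.26 for these 2 genes, close to saline. Rhbg, the ammonium transporter of pericentral hepatocytes, was at -1.06 and -1.07, and Mme, the peptidase neprilysin, at -1.44 and -1.37. With 5 reads added Rhbg and Fam89a were no longer shared. Ca1, a carbonic anhydrase abundant in red cells, was at -1.69 and -1.62, with the naive liver at 0.41. The red cell list had medians of -0.49 and -0.31 over 7 genes, 0 and 1 of them above 0, and a naive median of -2.36. Its part in the Ca1 difference was not tested.

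Some functions lay mostly on one side of saline in each cell liver with few or no genes past 2-fold. Of all 9956 genes, 4895 were above 0 in the siRNC liver and 4981 in the miR-27b liver. The background was thus split nearly evenly about 0. Of 19 ribosome biogenesis genes, 17 were below 0 in the siRNC liver, where the median was -0.36, and 19 were so in miR-27b liver (median -0.43). None passed 2-fold. Nop56, a box C/D RNA-binding protein of the nucleolus, was at -0.92 and -0.56, and Nop2, a ribosomal RNA methyltransferase, at -0.70 and -0.84. The naive median was -0.40, so the saline library was above the other 3 for this list. Of 24 cytochrome P450 and related genes, 20 were below 0 in the siRNC liver and 16 in the miR-27b liver. The median was -0.23 in both. The miR-27b count lay nearer to the even split of the background than the siRNC count. Nr1i3, which encodes the drug-sensing receptor CAR, was at -0.77 and -0.81, and its target Cyp2b2 at -2.24 and -1.16. Cyp2b2 was not shared, as its differences lay more than 1 apart. Its naive value was -1.80, so the saline library was above the other 3 for this gene. Cyp2b genes have near-identical copies, so reads may have been divided. Cytosolic ribosomal proteins had medians of -0.03 and 0.07 over 41 genes, and oxidative phosphorylation subunits -0.08 and -0.03 over 27.

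**Figure D4:**
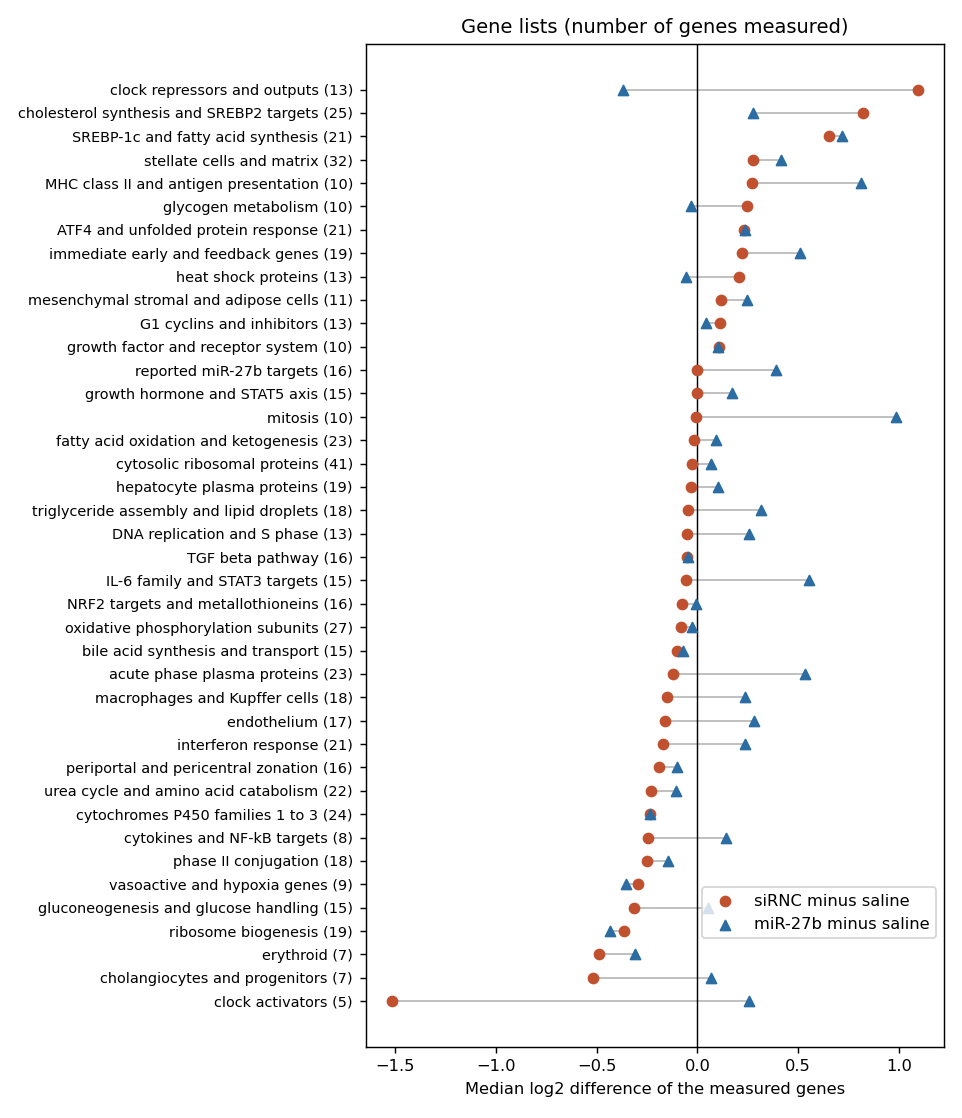
For each list with at least 5 measured genes (number in brackets), the circle is the median log2 difference of its genes between the siRNC and the saline library and the triangle that between the miR-27b and the saline library (horizontal axis). Both points lie above 0.6 for fatty acid synthesis (0.28 and 0.38 in the stricter set) and below -0.3 for ribosome biogenesis, while clock and mitosis lists have points far apart.

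Other functions differed between the cell livers and so were not shared. Among 13 clock repressors and outputs 7 were at least 2-fold higher in siRNC liver (median 1.09), and 4 passed 2-fold on the lower side in miR-27b liver (median -0.37). Over all genes 2.62% were at least 2-fold higher in the siRNC liver and 2.26% lower in the miR-27b liver. Per2, a clock repressor, was at 2.37 and -1.46. Mitosis genes had medians of -0.01 and 0.98 over 10 genes. Cxcl1, a neutrophil chemokine, was at -3.04 and 3.65. Lcn2, the acute phase protein lipocalin 2, had 14, 71, 34 and 595 reads in the naive, saline, siRNC and miR-27b libraries. Ppargc1a, a coactivator of mitochondrial and fasting genes, was at -0.73 and 1.12, and Hmox1, haem oxygenase, at 0.02 and 0.87. Adm, adrenomedullin, was under the floor of 1 normalised read in the siRNC library, against 15.9 and 23.9 reads in the saline and miR-27b libraries.

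The naive liver, whose values enter neither difference, was set beside the shared genes. It did enter the filter on low levels, so its place is not fully independent of the choice of genes. Among the shared genes with recovered reads, 1 lower gene, Zfp771, passed the filter only through its naive reads, and no higher gene did. Another 3 higher genes would have passed on the mean of the other libraries. For genes without recovered reads this could not be counted. Of the 75 shared higher genes, the naive value lay within 2-fold of the mean of the cell livers and not of saline in 25, and within 2-fold of saline and not of the cell livers in 23. It lay within 2-fold of both in 18. In 4 it lay beyond the cell livers, in 3 on the far side of saline and in 2 between. For Srebf1 and Sgk2, of the first group, the saline library stood apart from the other 3. For Cyp7a1, Thrsp, Insig1, Sult2a1, A2m, Gzma and Slc2a5, of the second, both cell livers stood apart from naive and saline. Tfrc, in the first group, and Fasn, in the second, had naive values about midway, 1.06 and 0.99 above saline and -0.97 and -1.03 from the cell mean.

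The shared lower genes were placed otherwise. Of 34, the naive value was near saline and not near the cell livers in 17, among them Ccnd1, Gadd45g, Akr7a3, Samd4a and Tmem25. It was near the cell livers and not near saline in 4, among them Trib3, and within 2-fold of both in 9. In 2 it lay beyond the cell livers, in 1 between and in 1 on the far side of saline. The median of naive minus the mean of the cell livers was -0.59 over the shared higher and 1.25 over the shared lower genes, against 0.02 over all genes, of which 89.3% lay within 1 of the cell mean. The shared genes were chosen by their cell values, and the cell mean is a term of this difference. The signs of both medians are therefore expected from the rule and say nothing of the naive liver. The share of all genes with a naive value near saline was not counted, so the counts near saline have no background beside them. These places were set by limits chosen after the values had been seen.

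**Figure D5:**
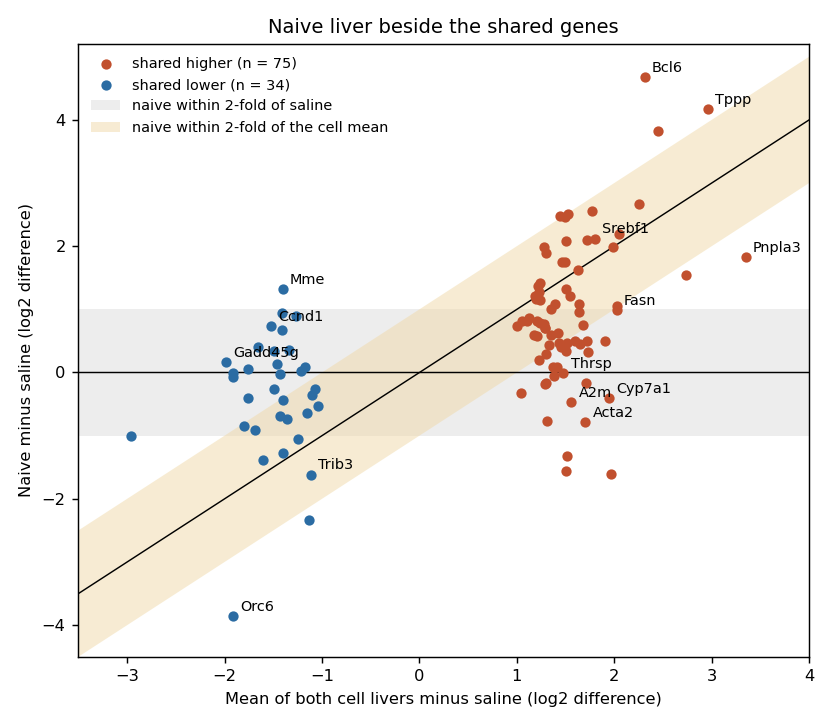
Each point is a shared gene, with the mean of both cell livers minus saline (horizontal axis) and the naive liver minus saline (vertical axis), both log2 differences, and bands where the naive liver is within 2-fold of saline (grey) or of the cell mean (tan, around the line of equality). Of the shared higher genes (red) 23 lie in the grey band alone and 25 in the tan band alone, and of the shared lower genes (blue) 17 and 4.

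Genes at the limits show how the 2-fold rule divides close values. Just inside on the higher side were Xrcc6bp1, at 1.002 and 1.01, and Zbtb37, at 1.01 and 1.72. Just outside were Heg1, at 0.99 and 1.15, and Zfp36, which encodes an mRNA decay factor, at 0.99 and 1.33. On the lower side Nek8, at -1.07 and -1.02, and Ube2o, at -1.02 and -1.28, were just inside. Slc25a48, at -1.61 and -0.99, and Gpatch4, at -1.21 and -0.98, were just outside. For the limit on distance, LOC680997, with the differences 0.95 apart, was inside, and Nfkbiz, at 1.28 and 2.35, was outside.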

How the data were processed

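Poly(A) RNA of 4 rat livers, 1 library each, was prepared with TruSeq and run on an Illumina MiSeq, per the labels' protocols. Groups were taken from the source labels and columns matched by title. The submitters' processing notes name DESeq and the build rn5; aligner and counter: not given in the sources used here. Deposited values are log2 values, named normalized in the file header, with a baseline near the median subtracted per gene, so they give differences and not levels. Of 12874 genes with a value other than 0, 77.3% had 1 library at exactly 0, and 18583 genes were at 0 in all 4. Total counts per library were not used here.

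Differences are deposited values minus the saline value, with no pseudocount. Levels were recovered from the last binary digits of the stored values, with reads in steps of 1 part in 101 and size factors of 0.977 (naive), 1.039 (saline), 1.005 (siRNC) and 0.956 (miR-27b). Reads with a posterior above 0.9 were recovered for 3502 genes, 1318 of them kept; 69.2% of the values were whole (within 1e-06). They are the smallest that fit, so a true number may be a whole multiple and the intervals too wide. A gene was kept at a mean of at least 10 normalised reads, or a probability of at least 0.5 of it; 4048 kept genes were in the upper level class (256 reads or more) and 4590 in the lower, without reads. The recovery was tested on simulated data and its settings were tuned on these files. Intervals are exact conditional binomial (Clopper-Pearson), and PCR copies are not independent molecules. Strand is not stated, so antisense reads cannot be separated.

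Named genes were the up to 14 highest and lowest shared genes of the stricter set, shared genes of lists with at least 2, up to 3 differing members of such lists, 10 fixed genes and the genes at the limits; not all of them are given in the text or drawn by name. Further list members and shared genes were named after their values were seen. Cd274, a fixed gene, did not pass the filter. The filter uses all 4 libraries; its effect without the naive library, and T and NK cell markers below it, were looked at after seeing the data. The members and the 43 lists were chosen with earlier results of these data known; 19 listed genes with 2 rows for 1 symbol were left out. Sequences come from RefSeq (GRCr8), matched by gene ID or name. Python 3.11.15, numpy 2.4.6, pandas 2.3.3 and scipy 1.17.1 were used.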

Additional observations from a re-analysis of the deposited data

How the results depend on the processing

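The counts depend on the filter, and most on genes of low level. With no filter on low levels there were 211 shared higher and 133 shared lower genes, and 2-fold counts of 614 and 518 (siRNC) and of 828 and 483 (miR-27b). Under the stricter filter the shared counts were 26 and 6, and the others 95 and 59 (siRNC) and 81 and 59 (miR-27b). A pseudocount of 5 reads, with genes without reads placed at 16 or 256, gave 43 and 21 shared genes, 121 lower genes in the siRNC liver, and 176 higher and 130 lower in the miR-27b liver. With both differences past 1.5-fold 326 and 184 genes were shared, and with the differences within 0.5 of each other 49 were shared higher. Centring moved no count by over 1.5 times. Of the 6 shared fatty acid genes 4 of 17 measured remained under the stricter filter and 5 with the pseudocount. The stricter filter also moved quoted medians by over 1.5 times, to 0.28 and 0.38 for fatty acid synthesis, 0.72 and -0.18 for clock repressors, and in the siRNC liver 0.31 for G1 genes and 0.40 for stromal genes; without a filter the miR-27b medians were 0.036 for stromal and -0.14 for red cell genes, and the siRNC medians -0.31 for mitosis and -0.068 for G1 genes. Several list medians changed sign between settings, that of G1 genes in the siRNC liver among them. Under the stricter filter the siRNC medians went from -0.30 to 0.082 for vasoactive and hypoxia genes and from -0.10 to 0.045 for bile acid genes. In the miR-27b liver that of G1 genes went from 0.044 to -0.050 under the same filter. Without a filter the miR-27b median of growth factor genes went from 0.10 to -0.036. With 1 library per group no library could be left out and no spread estimated. No paired analysis was possible because each group holds 1 library.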

Other observations

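Same-direction genes of unequal size lay outside the shared set. Nfkbiz, which encodes an inducible partner of NF-kB, was 1.28 above saline in the siRNC liver and 2.35 in the miR-27b liver, with the naive liver at -0.64. S100a9, a neutrophil protein, was at 1.17 and 2.40, with the naive liver at -2.79. On the lower side Cyp2c24 had 6, 358, 49 and 134 reads in the naive, saline, siRNC and miR-27b libraries, so the saline library was the highest of the 4. Thbs1, a matrix-associated thrombospondin, was under the floor of 1 normalised read in the saline library, against 6 reads in the naive, and 28.5 and 9 in the siRNC and miR-27b libraries.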
